A study of Homo sapiens with 3 samples.

Results

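Genes of the Fanconi anaemia pathway and of homologous recombination were examined in SK-Hep-1 cells, an established human line from a liver adenocarcinoma. The genes are a list of 39 symbols with known roles in these pathways, matched through Ensembl identifiers, and all 39 were found among the 22464 identifiers of the deposited table. The sh1089-1 and sh1089-2 lines are stable knockdowns of LINC01089, a long noncoding RNA, each made with its own hairpin by lentiviral infection. The shNC cells are labelled as the negative control, and how they were made is not stated beyond that name. Each group is 1 library of mRNA-enriched RNA, so no difference below has a replicate check, and the differences are given by size, without a test. Whether a line is 1 clone or a pool, and which promoter drives the hairpin, is not given in the sources used here. The level of LINC01089 was not analysed here, and the knockdown was therefore not checked.

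The libraries held 9528312 reads in sh1089-1, 8359832 in sh1089-2 and 10698480 in shNC, as worked out from the steps between low values. Levels are FPKM, fragments scaled to gene length and library total, as the authors computed them. The labels give liver as the tissue. Of 9 hepatocyte markers 5 were listed and 4 of these stayed below 1 FPKM in all 3 libraries, and of 8 endothelial markers 7 were listed and 6 stayed below 1 FPKM. The remaining markers were SERPINA1, a secreted protease inhibitor, with 5.91, 8.0 and 4.69 FPKM, and ENG, a TGF-beta co-receptor, with 48.8, 42.8 and 37.5 FPKM in sh1089-1, sh1089-2 and shNC.

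Homologous recombination repairs breaks across both DNA strands by copying an intact sister chromatid. Nucleases trim the broken end, BRCA1, PALB2 and BRCA2 prepare the exposed strand for exchange with the matching sequence, and helicases and nucleases take the joined molecules apart. The Fanconi pathway clears crosslinks between DNA strands: a core complex and the enzyme UBE2T attach ubiquitin to FANCD2 and FANCI, and recombination completes the repair. Inherited defects in these genes cause Fanconi anaemia and predispose to breast, ovarian and other cancers, and many of the genes are transcribed mainly in S and G2 phase in dividing cells.

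Most of the 39 genes stood above the control in both hairpin lines, by modest amounts. By plain FPKM ratio, 32 were above shNC in both libraries, 4 were below it in both (ATM, FANCL, NBN and PALB2) and 3 were split (TOPBP1, RAD51C and FANCF). Among the 38 with at least 50 reads over the 3 libraries, 31 were above shNC in both, which is 81.6%, and 4 were below in both. Of all 12234 genes with as many reads, 32.5% were above shNC in both and 43.3% below in both. Rescaling to TPM kept 32 genes above in both but put ATM above shNC in sh1089-2 and FANCL above it in sh1089-1, leaving 2 below in both, and centring on the median gene did the same. Both comparisons use the same shNC library, so a peculiarity of that library and an effect of the hairpins cannot be told apart.

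RAD54L, EXO1, FANCA and FANCG were the 4 genes at least 1.5-fold above shNC in both libraries on the log2(FPKM + 1) scale. That is 4 of 39 genes, or 10.3%, against 1.64% of all 22464 listed genes. In sh1089-1 the count was 6 of 39, with XRCC2 and FANCB added, against 3.66% of all genes, and in sh1089-2 it was 4 of 39, against 3.81%. The median difference over the 39 genes was 0.30 in sh1089-1 and 0.22 in sh1089-2, beside 0 over all listed genes in each comparison. Only 12234 of the listed genes had at least 50 reads, against 38 of the 39. A gene near 0 FPKM in all 3 libraries has a difference near 0 on this scale, which lowers these background shares.

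A filter of at least 1 FPKM on average over the 3 libraries left 32 of the 39 genes and 11198 genes in all. ATM, RAD50, BRCA2, BRIP1, RAD54B, FANCB and FANCM lay below it. POLQ and FANCC passed it through the hairpin libraries while below 1 FPKM in shNC, and PALB2 lay below 1 FPKM in sh1089-2, so the counts over the 32 are description. They were 5 higher in sh1089-1 (background 5.27%), 4 in sh1089-2 (4.89%) and 4 in both (3.08%). None was 1.5-fold lower in sh1089-1 (background 5.83%), in sh1089-2 (5.63%) or in both (2.79%). The medians over the 32 were 0.35 and 0.22, beside −0.03 and −0.04 over the 11198 genes.

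Adding 1 before taking logs shrinks the differences of low genes, and many of these genes are low. By plain ratio without it, among genes with at least 50 reads, 13 of 38 members were at least 1.5-fold higher in sh1089-1 (background 7.26%) and 11 of 38 in sh1089-2 (7.32%). The 8 that were so in both were RAD54L, EXO1, FANCA, FANCG, EME1, POLQ, FANCB and BRCA2, against a background of 4.33%. None was 1.5-fold lower in both, against 5.10% of all genes, although PALB2 was in sh1089-2. The 50 reads are summed over the 3 libraries. BRCA2, with 15 reads in shNC, and FANCB, with 18, have more reads in each hairpin library and may pass only through these. The counts over the 38, above and below, are therefore description. All ratios below are of this plain kind, hairpin library over shNC unless stated, and bracketed ranges are 95% exact (Clopper-Pearson) intervals that cover counting error only.

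**Figure D1:**
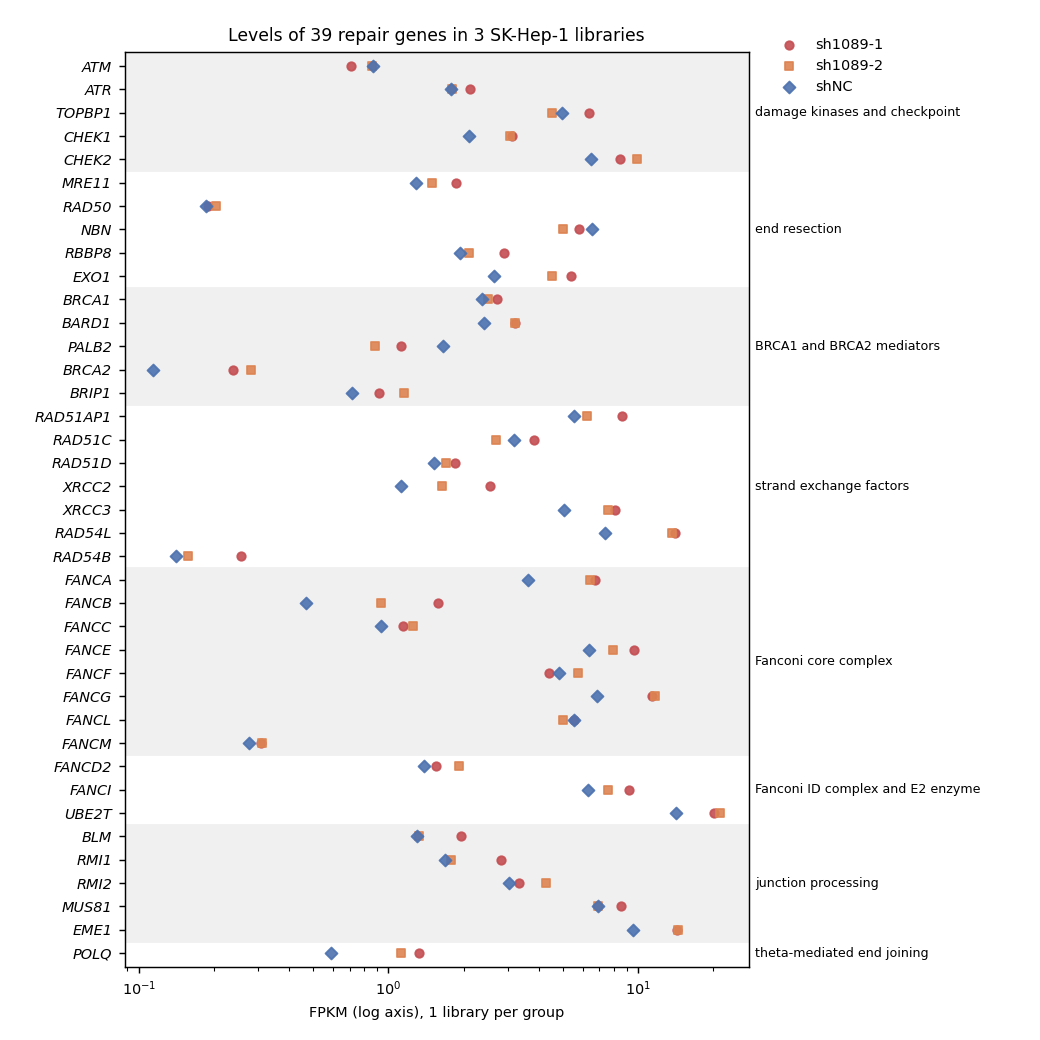
FPKM (log axis) of each of the 39 genes, ordered by role, in sh1089-1 (circles), sh1089-2 (squares) and shNC (diamonds), 1 library each. Levels in shNC run from 0.114 FPKM for BRCA2 to 14.2 FPKM for UBE2T, and for most genes the diamond lies left of both other symbols.

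The stretches before the transcription starts of 3 of the genes above shNC in both libraries, and of PALB2 as the gene furthest below it, are shown so that the motif matches described after them can be read in place. They are RefSeq windows on GRCh38.p14, cut to end where the GENCODE 29 gene begins and written 5′ to 3′ on the gene's strand. EXO1 is not shown because most of its RefSeq window lies inside its GENCODE gene. Capitals mark matches, on either strand, to TTTNNCGC (E2F-type), TTTGAA (a cell cycle homology element) or CCAAT (NF-Y-type).
RAD54L, chr1:46247438-46247687, plus strand: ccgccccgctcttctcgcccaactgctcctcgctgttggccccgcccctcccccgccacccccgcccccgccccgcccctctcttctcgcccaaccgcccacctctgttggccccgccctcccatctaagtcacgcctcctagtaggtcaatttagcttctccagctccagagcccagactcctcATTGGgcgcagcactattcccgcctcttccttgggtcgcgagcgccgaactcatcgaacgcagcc
FANCA, chr16:89816658-89816897, minus strand: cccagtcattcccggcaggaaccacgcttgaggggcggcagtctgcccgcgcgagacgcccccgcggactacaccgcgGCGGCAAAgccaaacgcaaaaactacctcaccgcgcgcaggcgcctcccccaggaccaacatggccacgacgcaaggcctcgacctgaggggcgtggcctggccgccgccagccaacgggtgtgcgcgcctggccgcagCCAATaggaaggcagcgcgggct
FANCG, chr9:35080017-35080192, minus strand: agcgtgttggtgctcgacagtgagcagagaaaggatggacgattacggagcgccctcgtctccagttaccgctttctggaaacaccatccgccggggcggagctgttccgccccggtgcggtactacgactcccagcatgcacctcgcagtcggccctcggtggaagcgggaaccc
PALB2, chr16:23641311-23641560, minus strand: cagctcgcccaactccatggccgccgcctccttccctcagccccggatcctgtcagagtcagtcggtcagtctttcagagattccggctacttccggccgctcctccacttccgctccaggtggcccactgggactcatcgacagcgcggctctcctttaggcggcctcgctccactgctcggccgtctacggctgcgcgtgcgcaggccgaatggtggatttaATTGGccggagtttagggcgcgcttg

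Of the 39 genes, 35 had a RefSeq promoter entry, and the 250 bases before the start were searched in each. The E2F-type letters occurred in 3 of 35 (CHEK2, FANCA and FANCC), or 8.57%, against 5.93% of 27305 windows in all. The cell cycle homology letters occurred in 5 of 35 (ATM, BRIP1, FANCC, POLQ and UBE2T), or 14.3%, against 13.6%. CCAAT occurred in 16 of 35, or 45.7%, against 33%, and up to 5 times, in XRCC3. The CCAAT matches of RAD54L and PALB2 are read on the other strand, from positions -65 and -26 relative to the start. Genes with CCAAT had median differences of 0.35 in sh1089-1 and 0.19 in sh1089-2, and those without had 0.30 and 0.22. A match is a string of letters and not a shown binding site. For E2F only TTTNNCGC was searched, so a gene without a match may still hold a related sequence.

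The kinases that sense damage were not above the control beyond counting error, and the kinases they switch on were. ATM, the kinase activated by broken ends, had 0.705, 0.858 and 0.870 FPKM in sh1089-1, sh1089-2 and shNC, and ATR, the kinase activated by exposed strands, had 2.12, 1.80 and 1.79 FPKM. The ATM ratio in sh1089-1 was 0.811 (0.658 to 0.997), an interval just below 1. The intervals of ATM in sh1089-2 and of ATR in both libraries held 1. TOPBP1, which activates ATR, had 6.35, 4.52 and 4.98 FPKM, so the hairpin libraries lay on either side of shNC. CHEK1, the effector kinase of ATR, had 3.12, 3.06 and 2.10 FPKM, with ratios of 1.49 (1.20 to 1.86) and 1.46 (1.17 to 1.84). CHEK2, the effector kinase of ATM, had 8.46, 9.90 and 6.45 FPKM, with ratios of 1.31 (1.12 to 1.53) and 1.54 (1.32 to 1.79).

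Among the genes that trim broken ends, EXO1 had the highest ratios. EXO1 (chromosome 1, 241847967 to 241895148, plus strand of GRCh38), a nuclease of long-range resection, had 5.38 FPKM in sh1089-1 and 4.51 in sh1089-2, against 2.64 in shNC. The values rest on 212, 156 and 117 reads, and the ratios were 2.03 (1.62 to 2.57) and 1.71 (1.33 to 2.19). Both intervals lay above 1.

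The MRE11, RAD50 and NBN complex starts resection, and its genes did not move together. MRE11, its nuclease, had 1.86, 1.49 and 1.29 FPKM in sh1089-1, sh1089-2 and shNC. NBN, its adaptor to ATM, had 5.81, 4.99 and 6.51 FPKM, with ratios of 0.892 (0.772 to 1.03) and 0.767 (0.654 to 0.897). RAD50, its ATPase, was listed at 0.189, 0.204 and 0.186 FPKM on 19, 18 and 21 reads. However, 79.7% of its exonic bases are shared with AC116366.3 on the same strand, so its level is uncertain. RBBP8, which encodes CtIP, a cofactor of the complex, had 2.89, 2.10 and 1.93 FPKM, and its interval lay above 1 in sh1089-1, at 1.5 (1.15 to 1.95), and held 1 in sh1089-2.

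The BRCA1 and BRCA2 mediator genes diverged. PALB2 (chromosome 16, 23603160 to 23641310, minus strand), the bridge between BRCA1 and BRCA2, was the only member whose counting interval lay below 1 in both comparisons. It had 1.13 FPKM in sh1089-1 and 0.882 in sh1089-2, against 1.65 in shNC, on 51, 35 and 84 reads, with ratios of 0.682 (0.472 to 0.977) and 0.533 (0.349 to 0.800). BRCA2, which prepares the trimmed strand for exchange, pointed the other way at a far lower level, with 0.239, 0.283 and 0.114 FPKM on 28, 29 and 15 reads. Its ratios of 2.10 (1.08 to 4.22) and 2.47 (1.28 to 4.97) are wide at these counts.

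BRCA1, a ubiquitin ligase and scaffold of the response, hardly differed, with 2.73, 2.51 and 2.38 FPKM and ratios of 1.15 (0.954 to 1.38) and 1.05 (0.867 to 1.28). BARD1, its obligate partner, had 3.20, 3.22 and 2.41 FPKM, and its ratios were 1.33 and 1.34. BRIP1, a helicase that binds BRCA1 and is also the Fanconi gene FANCJ, had 0.919, 1.15 and 0.714 FPKM. Its interval lay above 1 in sh1089-2, at 1.62 (1.14 to 2.30), and held 1 in sh1089-1.

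The strand exchange factors and the Fanconi core complex gave the highest summed ratios of the roles with several genes. The 7 strand exchange genes together had 1769, 1343 and 1267 reads, and their summed ratios were 1.57 (1.46 to 1.69) for sh1089-1 and 1.36 (1.26 to 1.47) for sh1089-2. Those of the core complex were 1.51 (1.40 to 1.62) and 1.47 (1.36 to 1.58), so the order of these roles differed between the libraries and their intervals overlapped in each. Summed reads weigh abundant genes most, and median ratios per gene ranked the roles otherwise. The strand exchange median was 1.60 in sh1089-1 but 1.14 in sh1089-2, and that of the core complex was 1.37 and 1.29. In sh1089-2 the mediators had 1.34, and FANCD2, FANCI and UBE2T together 1.37. RAD54L (chromosome 1, 46247688 to 46278473, plus strand), a motor that remodels DNA during strand exchange, had the highest FPKM of the 7 in each library. It had 14.1 FPKM in sh1089-1 and 13.6 in sh1089-2, against 7.40 in shNC, with ratios of 1.90 (1.63 to 2.23) and 1.84 (1.56 to 2.17). Its relative RAD54B was listed at 0.257, 0.157 and 0.141 FPKM on 13, 7 and 8 reads, too few to show a difference. The level of RAD54B is also uncertain, because 59.1% of its exonic bases are shared with FSBP on the same strand.

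Factors that work as partners differed from each other. XRCC3 had 8.09, 7.57 and 5.07 FPKM in sh1089-1, sh1089-2 and shNC, while RAD51C, with which it pairs, had 3.84, 2.70 and 3.17 FPKM. The ratios were 1.60 (1.40 to 1.82) and 1.49 (1.31 to 1.71) for XRCC3, against 1.21 (0.996 to 1.47) and 0.851 (0.681 to 1.06) for RAD51C. XRCC2, of the other complex, had 2.54, 1.63 and 1.12 FPKM, with ratios of 2.26 (1.64 to 3.16) and 1.46 (1.01 to 2.11). RAD51D, its direct partner, had 1.85, 1.69 and 1.52 FPKM, with intervals that held 1. RAD51AP1, which stimulates strand exchange, had 8.62, 6.27 and 5.52 FPKM and ratios of 1.56 (1.26 to 1.94) and 1.14 (0.893 to 1.44).

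The Fanconi core complex, the ubiquitin ligase of the pathway, ran from genes well above shNC to genes whose intervals held 1. FANCG (chromosome 9, 35073835 to 35080016, minus strand) had 11.3 FPKM in sh1089-1 and 11.7 in sh1089-2, against 6.83 in shNC, with ratios of 1.66 (1.42 to 1.95) and 1.71 (1.45 to 2.01). FANCA (chromosome 16, 89737549 to 89816657, minus strand), which binds FANCG, had 6.70 and 6.43 FPKM, against 3.62 in shNC, with ratios of 1.85 (1.63 to 2.11) and 1.78 (1.55 to 2.03). FANCB, the scaffold of the catalytic part, had 1.58 and 0.932 FPKM, against 0.468, on 54, 28 and 18 reads. Its ratio was the highest of all 39 genes in sh1089-1, at 3.37 (1.94 to 6.10), and was 1.99 (1.06 to 3.82) in sh1089-2.

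FANCE, which contacts FANCD2, had 9.67, 7.91 and 6.35 FPKM in sh1089-1, sh1089-2 and shNC and ratios of 1.52 (1.25 to 1.85) and 1.24 (1.01 to 1.54). FANCC, its neighbour in the complex, had 1.15, 1.25 and 0.934 FPKM, with ratios of 1.23 (0.959 to 1.57) and 1.34 (1.04 to 1.72). FANCL, the subunit that carries the ligase activity, was level, with 5.53, 5.01 and 5.54 FPKM and intervals from 0.779 to 1.28 and from 0.694 to 1.17. FANCF, an adaptor, had 4.41, 5.75 and 4.81 FPKM, and FANCM, a translocase that docks the complex on DNA, had 0.309, 0.310 and 0.276 FPKM on 25, 22 and 25 reads. For FANCF and FANCM both intervals held 1.

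The substrates and the E2 enzyme of the core complex were above shNC in both libraries. UBE2T (chromosome 1, 202331657 to 202341980, minus strand), the ubiquitin-conjugating enzyme, was the most abundant of the 39 genes, with 20.1, 21.4 and 14.2 FPKM, and its ratios were 1.41 (1.19 to 1.68) and 1.5 (1.27 to 1.79). FANCI had 9.18, 7.56 and 6.31 FPKM, with ratios of 1.45 (1.30 to 1.63) and 1.20 (1.06 to 1.36). FANCD2, its partner in the ubiquitinated clamp, had 1.55, 1.91 and 1.39 FPKM, and its interval lay above 1 only in sh1089-2, at 1.37 (1.07 to 1.76). In shNC the FANCI level was well above that of FANCD2, on a scale per gene length.

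Among genes that take apart joined molecules, EME1 had intervals above 1 in both libraries, MUS81, BLM and RMI1 in sh1089-1, and RMI2 in sh1089-2. EME1, the partner of the nuclease MUS81, had 14.4 FPKM in sh1089-1 and 14.5 in sh1089-2, against 9.56 in shNC, with ratios of 1.5 (1.30 to 1.74) and 1.52 (1.31 to 1.76). MUS81 itself had 8.57, 6.92 and 6.90 FPKM, with ratios of 1.24 (1.08 to 1.43) and 1.00 (0.863 to 1.17). BLM, the helicase that dissolves double junctions with RMI1 and RMI2, had 1.96, 1.33 and 1.31 FPKM, and RMI1 had 2.81, 1.77 and 1.68 FPKM. RMI2 had 3.34, 4.27 and 3.03 FPKM and a ratio of 1.41 (1.09 to 1.83) in sh1089-2.

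POLQ, the polymerase of an error-prone joining route that competes with recombination, was also higher. It had 1.33 FPKM in sh1089-1 and 1.12 in sh1089-2, against 0.588 in shNC, on 119, 88 and 59 reads, with ratios of 2.26 (1.64 to 3.15) and 1.91 (1.36 to 2.70).

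**Figure D2:**
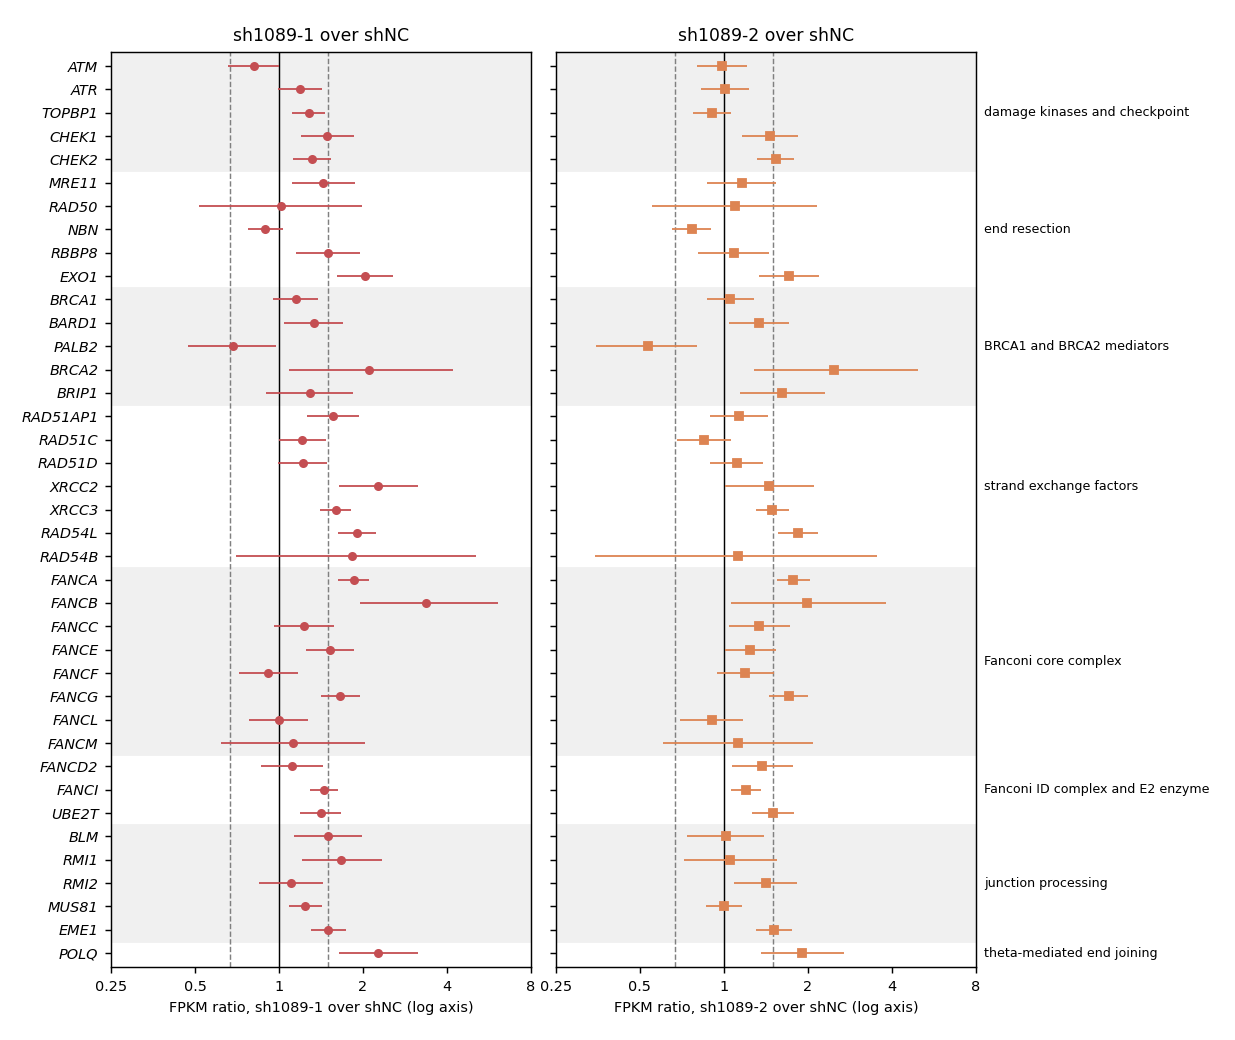
FPKM ratio over shNC (log axis) of each of the 39 genes in sh1089-1 (left) and sh1089-2 (right), 1 library each, with bars for the 95% exact counting interval, a solid line at 1 and dashed lines at 1.5-fold either way. The intervals of 23 genes lie above 1 in sh1089-1, of 20 in sh1089-2 and of 16 in both, and PALB2 is the member that lies below 1 in both.

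Among the 38 genes with at least 50 reads, the interval lay above 1 for 23 in sh1089-1, or 60.5%, against 23.4% of all genes with as many reads. It did so for 20 in sh1089-2, or 52.6%, against 21.2%, and for 16 in both, or 42.1%, against 14.2%. It lay below 1 in both for PALB2 alone, against 17.4% of all genes, and held 1 in both for 8 of the 38, against 32.8%. The members had a median of 490 reads over the 3 libraries and all these genes 785.5, and a gene with more reads has a narrower interval. BRCA2 and FANCB, with 15 and 18 reads in shNC, are among the 16, so these counts too are description. Taken as 1 pool, the 39 genes had 8770, 7063 and 7139 reads in sh1089-1, sh1089-2 and shNC, or 920, 845 and 667 RPM (reads scaled to a common library total). Against shNC the pool stood at 1.38 (1.34 to 1.42) for sh1089-1 and 1.27 (1.22 to 1.31) for sh1089-2. These intervals hold no variation between cultures. In bulk RNA, more cells that express a gene and more RNA per cell cannot be told apart, and the same holds for fewer cells and less RNA.

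The hairpin libraries were also set against each other, which shows how far members differ without the shNC library. By plain ratio, 25 of the 39 genes were lower in sh1089-2 than in sh1089-1 and 14 were higher. Among those with at least 50 reads it was 24 of 38, or 63.2%, against 51.0% of all genes with as many reads. None of the 32 genes past the FPKM filter was 1.5-fold apart in log2(FPKM + 1), against 4.78% of all genes. By plain ratio 3 of 38 were, RMI1, XRCC2 and FANCB, against 9.93%. The intervals of 11 of 38 genes lay below 1, or 28.9%, against 19.2% of all genes, among them TOPBP1 at 0.712 (0.610 to 0.829), RAD51C at 0.703 (0.564 to 0.874), BLM at 0.680 (0.503 to 0.914) and RMI1 at 0.631 (0.440 to 0.894). CHEK2 and FANCF were the 2 members with intervals above 1, against 17.6% of all genes, at 1.17 (1.01 to 1.36) and 1.31 (1.02 to 1.67). All 7 strand exchange factors were lower in sh1089-2, with a summed ratio of 0.865 (0.805 to 0.929), while the core complex gave 0.975 (0.909 to 1.05). RAD54L, FANCA and FANCG had ratios of 0.967, 0.958 and 1.03, and EXO1 had 0.839, each with an interval that held 1.

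**Figure D3:**
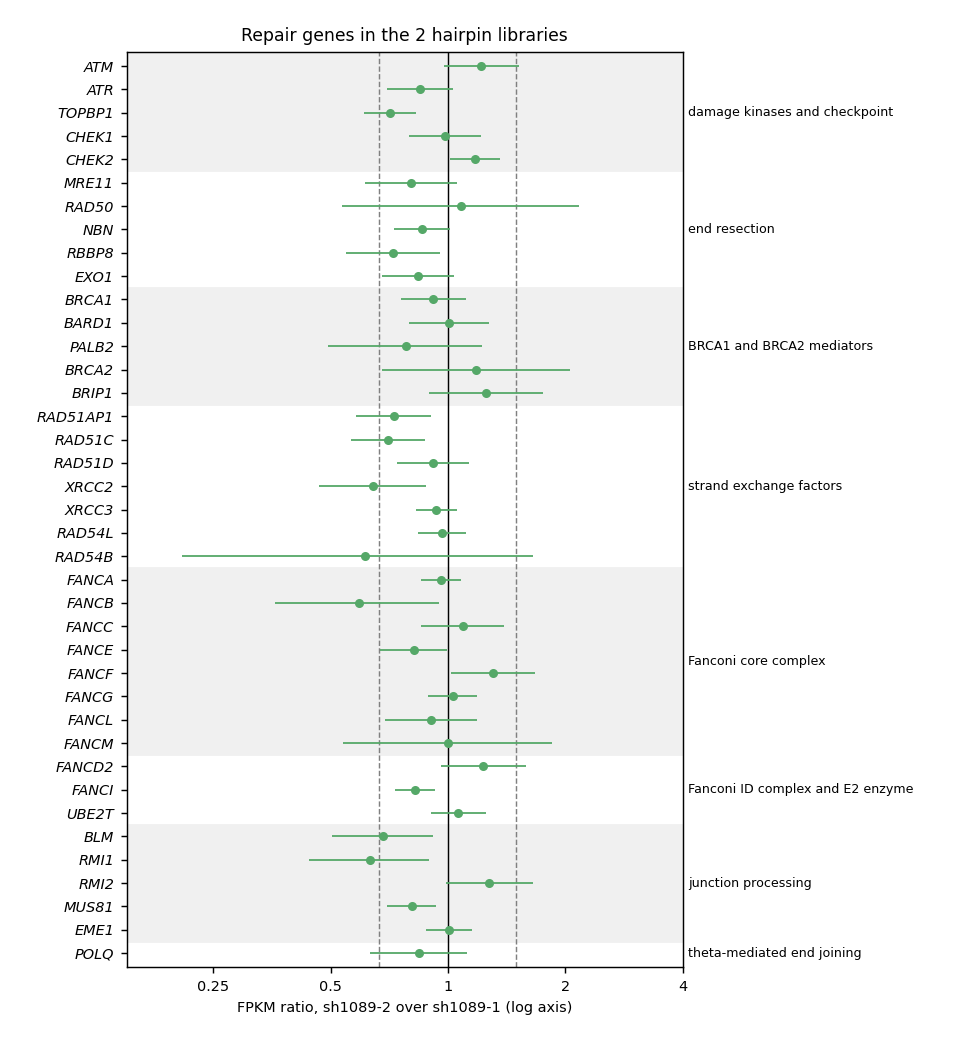
FPKM ratio of sh1089-2 over sh1089-1 (log axis) for each of the 39 genes, 1 library each, with bars for the 95% exact counting interval, a solid line at 1 and dashed lines at 1.5-fold either way. The points of all 7 strand exchange factors lie left of 1, and those of CHEK2 and FANCF lie right of it with their intervals.

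The wider pathway gave smaller medians. Of 55 other recombination and Fanconi genes 46 passed the FPKM filter, and 30 of these were above shNC in sh1089-1 and 23 in sh1089-2, against 46.3% and 44.8% of all 11198 genes past the filter. Their median differences were 0.10 and 0.0099. On log2(FPKM + 1), H2AX, the histone variant marked at breaks, and PARPBP, an inhibitor of recombination, were 1.5-fold higher in both. None of the 46 was 1.5-fold lower in both on that scale. H2AX and PARPBP, as 2 of 46 genes, are 4.35%, near the 3.08% of all genes higher in both, beside 2.79% lower in both. In each library alone 5 of 46 were higher, or 10.9%, against 5.27% in sh1089-1 and 4.89% in sh1089-2. By plain ratio, with at least 50 reads, TONSL, RFWD3, ATRIP and GEN1 were also 1.5-fold higher in both, as were 4.33% of all genes. ERCC4 and HELQ were 1.5-fold lower in both, as were 5.10% of all genes. How many of the 55 genes had at least 50 reads was not counted. No share of this list by plain ratio therefore stands beside the 4.33% or the 5.10%. The ERCC4 ratios were 0.568 (0.434 to 0.739) and 0.565 (0.426 to 0.745). H2AX had 129.9 FPKM in sh1089-1 and 112.4 in sh1089-2, against 51.1 in shNC, and PARPBP had 3.67 and 3.10, against 1.62.

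Other repair pathways gave lower medians than the 32 repair members past the filter. The 12 end-joining genes past the filter had medians of 0.09 and 0.11 with none past 1.5-fold, and the 7 mismatch repair genes had −0.02 and −0.12 with none past it. Base excision repair had medians of 0.08 and 0.09 over 18 genes. On log2(FPKM + 1), 2 of these 18 were 1.5-fold higher in both, or 11.1%, against 3.08% of all genes and 12.5% of the 32 repair members. They were FEN1, a flap nuclease, with 41.1 and 31.6 FPKM against 14.2 in shNC, and LIG1, a DNA ligase, with 13.3 and 12.3 FPKM against 6.62. Both also act in DNA replication. Nucleotide excision repair had medians of −0.11 and −0.12 over 16 genes. On the same scale 1 of the 16 was 1.5-fold lower in both, against 2.79% of all genes. It was ERCC6, a factor of transcription-coupled repair, with 3.75 and 3.86 FPKM against 7.61.

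Proliferation markers differed more than the repair genes. All 12 were above shNC in both libraries, against 33.3% of all genes past the filter, and 8 of them by at least 1.5-fold, against 3.08%. They had medians of 0.89 in sh1089-1 and 0.78 in sh1089-2. The summed level of this list was not used to adjust the repair genes, and its part in their values was not tested. BIRC5, a mitotic and survival factor, had 50.5 and 46.2 FPKM, against 19.1 in shNC. GINS2, of the replicative helicase, had 7.5 and 6.69 FPKM, against 2.93. MKI67, a marker of dividing cells, had 13.5 and 14.2 FPKM, against 6.73. CDC6 and CDT1, which load the replicative helicase, had 15.4 and 12.7 FPKM against 6.39, and 30.9 and 30.7 FPKM against 16.4.

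**Figure D4:**
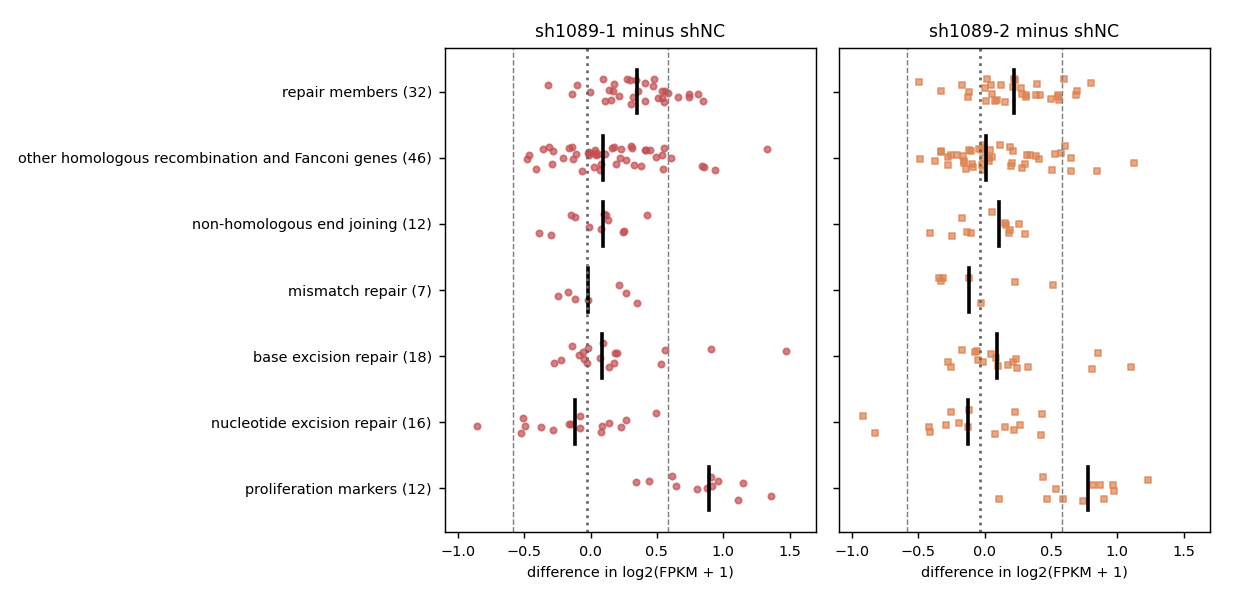
Difference in log2(FPKM + 1) over shNC for sh1089-1 (left) and sh1089-2 (right), 1 library each. Points are genes past the FPKM filter with their number in brackets, black bars are list medians, the dotted line is the median of all 11198 genes and dashed lines mark 1.5-fold. The repair members have medians of 0.35 and 0.22, between the other repair lists and the proliferation markers at 0.89 and 0.78.

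Several members overlap other genes, and it is not given whether the authors' counting used the strand of the libraries. With a gene on the opposite strand 20 of the 39 share exonic bases, and 6 do so on the same strand. For XRCC3 the share is 76.7%, with KLC1, a kinesin light chain gene, whose ratios were 1.19 in sh1089-1 and 1.12 in sh1089-2. For RAD54L it is 25.1%, with LRRC41 (1.21 and 1.19), and for FANCA 23.6%, with ZNF276 (1.08 and 1.13). EME1 shares 16.4% with LRRC59 (1.39 and 1.26). PALB2 shares 1.81% with AC008870.4, and EXO1, FANCG, FANCB, BRCA2 and POLQ share none. RAD54B shares 59.1% with FSBP on its own strand.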

How the data were processed

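The authors deposited FPKM values for 22464 Ensembl identifiers in 3 libraries, 1 per group. Per the labels' protocols, libraries were strand-specific and made from mRNA enriched out of Trizol-extracted RNA. Per the submitters' processing notes, FastQC, StringTie and GRCh38 were used. The sources used here name no versions, aligner or annotation.

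Symbols were matched for 20952 identifiers, and coordinates come from GENCODE 29 (22444 identifiers). Each library's total, and a whole gene length that makes all 3 values whole reads, was searched from the FPKM steps and found for 19200 of 19204 genes above 0, taking the length nearest to GENCODE 29. Where several lengths fit, reads and interval widths depend on that choice, BARD1 above all, and ratios do not. The limit for a gene with no read, set at 3 reads, is 0.315 RPM in sh1089-1, 0.359 in sh1089-2 and 0.280 in shNC. The reads carry no molecular identifiers.

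Differences are in log2(FPKM + 1) over genes with a mean of at least 1 FPKM. Values were to be printed for members 1.5-fold from shNC in both libraries, for members on opposite sides of it by at least 0.3 each way, and for the 2 highest and 2 lowest of each role in shNC, with up to 5 genes of each other list past 1.5-fold in both. Members outside that rule, and the genes of the wider recombination list named by plain ratio, were added after their values were seen. Members and lists were chosen with earlier results of these data known. The motifs, the plain-ratio rule and the filter of 100 reads were chosen after the data were examined. limma 3.58.1, with the hairpin libraries taken as replicates, served as an alternative. The calculations used Python 3.11.15 and were tested on simulated data. A gene of the wider recombination list is not reported here.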

Additional observations from a re-analysis of the deposited data

How the results depend on the processing

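No paired analysis was possible because each group is 1 library with no replicate number. Under the alternatives run, no member was 1.5-fold lower in both hairpin libraries, and both medians over the members kept their sign, from 0.30 to 0.51 in sh1089-1 and from 0.22 to 0.39 in sh1089-2. The number of members 1.5-fold higher moved, and the cause was not tested. It was 5 in sh1089-1, 4 in sh1089-2 and 4 in both as reported. A pseudocount of 0.1 gave 10 and 8 in the separate libraries and put 2 members 1.5-fold apart between the hairpins. Rescaling to TPM gave 11, 9 and 7. Centring gave 7 in sh1089-2, and a mean of at least 5 FPKM gave 3 in sh1089-1, where only 14 members remained. Plain ratios gave 13, 11 and 8, with 3 members apart between the hairpins. At 2-fold the counts were 0, 0 and 0, where 0.723% of all genes were higher in both. Members higher in both were 12.5% as reported, against 3.08% of all genes. With the pseudocount of 0.1 they were 15.6%, against 4.34%, and after rescaling 21.9%, against 4.54%. POLQ, which passed the FPKM filter through the hairpin libraries, was the gene added by that pseudocount and 1 of those added by rescaling. These shares are therefore description. Centring gave 12.5% against 3.38%, a mean of at least 5 FPKM 21.4% against 3.64%, and plain ratios 21.1% against 4.33%. Of all 11198 genes, 312 were lower in both as reported, 525 with the pseudocount of 0.1, 372 after rescaling, 271 after centring and 83 at 2-fold. At a mean of at least 5 FPKM it was 142 of 6376 genes, and by plain ratio 624 of 12234. These shares are small, so 0 members lower in both is near them. Shares of all genes for the separate libraries and between the hairpins were not worked out under every alternative. limma with the hairpin libraries as replicates, which assumes that the lone shNC library varies as they do, called 0 members and 0 of 11198 genes at an adjusted p under 0.05, while 1446 genes had an unadjusted p under 0.05. Depth limits the genes below 50 reads in a library, such as BRCA2, RAD50, RAD54B and FANCM. It also limits FANCB, with 28 reads in sh1089-2 and 18 in shNC, and PALB2, with 35 in sh1089-2.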
